A study of Homo sapiens with 21 samples.

Results

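The 9 genes described here, which the transcription factor NRF2 is known to switch on, were followed across every culture condition of AU565, an ERBB2-amplified line of human breast cancer cells. They were taken by symbol from the count table, which lists 16553 genes, and all 9 were present and passed the filter on low counts. They are GCLC, GCLM, TXNRD1, SRXN1, NQO1, HMOX1, PGD, TKT and ABCC3. The 21 RNA-seq libraries form 7 groups of 3, all from wild-type AU565 in RPMI with 10% fetal bovine serum. Primed aggregates came from monolayer cells given the HER2 antibody trastuzumab at 20 µg/ml for 24 h, then grown as 3D aggregates by liquid overlay and 5% matrigel for 96 h. Treated aggregates were formed for 96 h without drug and then given 50 µg/ml for 24 h. Primed and treated aggregates had both exposures, and untreated aggregates were kept 96 h with neither. Acutely exposed monolayers had 20 µg/ml for 24 h, primed monolayers had the same and 96 h more, and untreated monolayers had no drug. Both groups given the second exposure were thus 24 h older than the untreated and primed aggregates. A single cell line was used, and no label states whether replicates are independent cultures, so p-values measure only the spread between these samples, which may be technical.

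NRF2 (gene NFE2L2) is held at low level by KEAP1, which hands it to a ubiquitin ligase. When electrophiles or oxidants modify KEAP1, NRF2 accumulates, pairs with a small MAF protein and binds antioxidant response elements, from which BACH1 can keep it away. Its targets make glutathione, reduce thioredoxin and peroxiredoxins, detoxify quinones and haem, export conjugates and supply the NADPH that these reactions use, much of it from the pentose phosphate pathway.

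Levels are CPM, read counts relative to library size, scaled by TMM, an adjustment for library composition, and given per replicate 1, 2 and 3 or as mean ± SD (n = 3). Changes are log2 fold changes from edgeR with their standard error (SE). Passing means a p below 0.05 after Benjamini-Hochberg adjustment over the 15969 genes tested. In bulk RNA, fewer cells of a type and less RNA per cell cannot be told apart. Library totals ran from 15005070 to 26921113 counts, and the members' counts per library from 93 for HMOX1 to 41553 for TXNRD1.

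Transcripts of other tissues divided the libraries before any comparison. In 9 libraries (treated aggregates, primed and treated aggregates, and primed monolayers) the summed level of 12 kidney markers was 11.2 to 45.6 CPM, against 1.95 to 3.22 CPM in the 12 others. The same 9 had 6.73 to 14.998 CPM over 9 melanocyte markers and 5.55 to 11.8 CPM over the 9 mesenchymal markers in the table (of 11), against 25.2 to 125 CPM and 22.6 to 49.6 CPM in the 12. The melanocyte gene TYR was at 0 in all 9, and the kidney genes ACSM2A and ACSM2B were at 0 in all 12. Summed brain markers (8 of 10 in the table) were 25.8 to 76.2 CPM in the 9 and 30.2 to 44.2 CPM in the 12. Striated muscle markers (10 of 12) were 91.1 to 142 and 98.7 to 257 CPM, and hepatocyte markers (4 of 7) 10.8 to 229.6 and 61.2 to 172 CPM. Single genes weighed heavily in these sums. Over all libraries SLC1A2 reached 32.5 CPM and NEFL 0.853, MB 195 and CKM 0.858, and FGB 183 and ALB 0.736. A difference in these sums therefore need not come from the named tissue. The 11 luminal breast epithelium markers summed to 15445 to 24276 CPM, and none was at 0 throughout a group. Within that sum ERBB2 was at 5767 to 10031.5 CPM. The lowest of the 11 were CDH1, at 0.0449 to 3.05 CPM, and GATA3, at 2.41 to 11.8 CPM. Heart muscle myosin MYH7 reached 20.6 to 87.4 CPM in 6 of the 21 libraries and 0.110 CPM or less elsewhere. The 6 were untreated aggregates 1 and 2, acutely exposed monolayers 2 and 3, and untreated monolayers 1 and 2. Mitochondrial rRNA took 1.52 to 2.77% of counts in aggregates and 0.793 to 1.14% in monolayers. Where a comparison crosses the 9 and the 12, the treatment and the library set cannot be told apart. The part of these transcripts in the results was not tested, beyond the fits without the 6 MYH7 libraries, which leave 1 library in each of these 3 groups and assume that it varies like the other groups.

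The 4 promoter windows of 3 members that follow are printed because they hold the core letters of the antioxidant response element, TGACNNNGC on either strand, shown in capitals. Each is the 250 bases before a RefSeq start on GRCh38.p14, 5′ to 3′ on the gene's strand: GCLM at chr1:93909431-93909680 (minus), PGD at chr1:10398814-10399063 (plus), and TXNRD1 at chr12:104215529-104215778 and chr12:104286782-104287031 (plus, 2 starts).
GCLM: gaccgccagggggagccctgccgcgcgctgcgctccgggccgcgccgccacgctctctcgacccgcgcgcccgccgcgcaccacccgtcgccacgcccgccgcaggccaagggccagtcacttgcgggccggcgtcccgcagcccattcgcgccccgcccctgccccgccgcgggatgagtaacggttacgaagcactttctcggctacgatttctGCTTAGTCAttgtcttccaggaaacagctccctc
PGD: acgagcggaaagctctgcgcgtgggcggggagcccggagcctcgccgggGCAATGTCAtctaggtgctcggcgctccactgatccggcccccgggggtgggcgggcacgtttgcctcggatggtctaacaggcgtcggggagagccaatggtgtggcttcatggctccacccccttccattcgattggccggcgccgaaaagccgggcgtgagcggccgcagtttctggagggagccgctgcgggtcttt
TXNRD1 first start: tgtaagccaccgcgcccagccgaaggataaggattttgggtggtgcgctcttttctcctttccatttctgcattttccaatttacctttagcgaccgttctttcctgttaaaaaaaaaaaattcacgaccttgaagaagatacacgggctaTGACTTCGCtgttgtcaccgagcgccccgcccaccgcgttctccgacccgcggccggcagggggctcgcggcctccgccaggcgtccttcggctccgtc
TXNRD1 second start: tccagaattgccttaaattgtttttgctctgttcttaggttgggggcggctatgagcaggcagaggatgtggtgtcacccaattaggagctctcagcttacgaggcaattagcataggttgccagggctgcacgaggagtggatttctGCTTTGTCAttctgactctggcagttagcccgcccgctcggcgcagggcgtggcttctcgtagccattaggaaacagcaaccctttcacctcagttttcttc
The capitals begin 34 bases before the start in GCLM, 201 in PGD, and 99 and 102 in the windows of TXNRD1. RefSeq windows were matched for 7 members (8 windows). The 4 windows of NQO1, GCLC, SRXN1 and TKT did not hold these letters. Of all 35116 windows of this length, 3830 (10.9%) held them. A match describes the letters in this window and does not show a bound site.

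Glutamate-cysteine ligase makes the first, rate-limiting step of glutathione synthesis. Its catalytic subunit is GCLC (Entrez 2729, chr6:53497341-53545101, GRCh38.p14 as for all positions here) and its modifier subunit, which raises the activity of the pair, is GCLM (Entrez 2730, chr1:93885199-93909430). GCLC had 78.4, 77.0 and 78.6 CPM in primed aggregates, 87.8, 86.9 and 92.3 in treated aggregates, 88.6, 97.0 and 92.2 in primed and treated aggregates, and 90.8, 91.3 and 91.7 in untreated aggregates. In monolayers GCLC had 59.5, 62.8 and 59.0 CPM after acute exposure, 80.2, 78.0 and 82.9 when primed and 57.4, 50.2 and 50.3 when untreated. The order of group means ran from primed and treated, untreated and treated aggregates, whose replicates overlapped in turn, through primed monolayers and primed aggregates, which overlapped, to acutely exposed and then untreated monolayers, both apart from every other group. GCLM had 50.1, 42.5 and 48.9 CPM in primed aggregates, 59.3, 61.0 and 62.4 in treated aggregates, 62.7, 63.2 and 67.5 in primed and treated aggregates, and 59.4, 57.8 and 64.1 in untreated aggregates. In monolayers GCLM had 66.2, 69.6 and 67.2 CPM after acute exposure, 67.3, 75.9 and 76.8 when primed and 83.6, 80.7 and 78.2 when untreated. Untreated monolayers were highest and primed aggregates lowest for GCLM, both without overlap, and of the neighbours between them primed and acutely exposed monolayers overlapped, as did acutely exposed monolayers with primed and treated aggregates, and treated with untreated aggregates.

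Thioredoxin reductase 1 (TXNRD1, Entrez 7296, chr12:104215779-104350307) uses NADPH to reduce thioredoxin, and sulfiredoxin (SRXN1, Entrez 140809, chr20:646615-653200) repairs overoxidised peroxiredoxins. TXNRD1 had 986, 791 and 809 CPM in primed aggregates, 943, 923 and 1049 in treated aggregates, 980.1, 1041 and 1147 in primed and treated aggregates, and 812, 855 and 896 in untreated aggregates. TXNRD1 in monolayers was at 1869, 1774 and 1709 CPM after acute exposure, 1545, 1534 and 1662 when primed and 1606, 1507 and 1498 when untreated. Every monolayer library was above every aggregate library, and acutely exposed monolayers stood above the rest, while primed and untreated monolayers overlapped, as did neighbours within the aggregates. SRXN1 had 101, 107 and 119.9 CPM in primed aggregates, 146, 148 and 136 in treated aggregates, 155, 145 and 140.4 in primed and treated aggregates, and 156, 141 and 133 in untreated aggregates. SRXN1 in monolayers was at 134, 143 and 147 CPM after acute exposure, 171, 150.1 and 153 when primed and 152, 150.2 and 162 when untreated. Primed aggregates were the one group apart from its neighbour in the order of SRXN1 levels, below the other 6.

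NQO1 (Entrez 1728, chr16:69709401-69726560) reduces quinones by 2 electrons and is a standard readout of NRF2 activity. Haem oxygenase 1 (HMOX1, Entrez 3162, chr22:35381096-35394207) opens the haem ring and is repressed by BACH1. NQO1 had 279, 239 and 252 CPM in primed aggregates, 355, 345 and 364 in treated aggregates, 363, 360.4 and 384 in primed and treated aggregates, and 313, 306 and 337 in untreated aggregates. NQO1 in monolayers was at 228, 229.7 and 235 CPM after acute exposure, 339.5, 326 and 325 when primed and 244, 254 and 236 when untreated. From high to low, both groups given the second exposure came first and overlapped, then primed monolayers with untreated aggregates, then primed aggregates with untreated monolayers, and acutely exposed monolayers last. HMOX1 had 5.50, 5.73 and 6.16 CPM in primed aggregates, 12.4, 11.8 and 9.78 in treated aggregates, 9.78, 7.69 and 9.35 in primed and treated aggregates, and 9.40, 9.45 and 8.92 in untreated aggregates. HMOX1 in monolayers was at 11.9, 13.6 and 14.6 CPM after acute exposure, 18.6, 19.2 and 17.5 when primed and 15.6, 14.8 and 15.4 when untreated. HMOX1 was highest in primed monolayers and lowest in primed aggregates, both without overlap; its only overlapping neighbours were acutely exposed monolayers with treated aggregates, and untreated with primed and treated aggregates. Macrophages also express HMOX1, and their markers CD163, CD14 and MARCO reached at most 0.871, 0.583 and 1.34 CPM, with each at 0 in some library, while CSF1R was at 2.05 to 21.7 CPM and CD68, a lysosomal protein that is not limited to macrophages, at 24.0 to 74.6 CPM. The 5 markers in the table, of 9 listed, summed to 62.0 to 77.3 CPM in primed aggregates and 54.6 to 58.3 in untreated aggregates, and to 45.4 to 53.3 in primed monolayers, where HMOX1 was highest. Their part in the HMOX1 values was not tested.

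Phosphogluconate dehydrogenase (PGD, Entrez 5226, chr1:10399064-10420511) makes NADPH in the oxidative branch of the pentose phosphate pathway, and transketolase (TKT, Entrez 7086, chr3:53224712-53256022) moves 2-carbon units in the non-oxidative branch. PGD had 162, 157 and 168 CPM in primed aggregates, 186, 179 and 177 in treated aggregates, 191, 189 and 177 in primed and treated aggregates, and 209, 204 and 209 in untreated aggregates. PGD in monolayers was at 134, 140.0 and 129.9 CPM after acute exposure, 198, 194 and 194 when primed and 148, 149.7 and 153 when untreated. Untreated aggregates were highest, and of all neighbours in the order only treated and primed and treated aggregates overlapped. TKT had 821, 767 and 718 CPM in primed aggregates, 948, 984 and 1034 in treated aggregates, 1101, 1075 and 1101 in primed and treated aggregates, and 868, 789 and 821 in untreated aggregates. TKT in monolayers was at 1487, 1446 and 1455 CPM after acute exposure, 1196, 1157 and 1059.9 when primed and 1439, 1393 and 1481 when untreated. Acutely exposed and untreated monolayers overlapped at the top of the TKT order, primed monolayers overlapped primed and treated aggregates, and untreated and primed aggregates overlapped at the bottom.

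The multidrug resistance-associated transporter ABCC3 (MRP3, Entrez 8714, chr17:50634881-50692253) exports glucuronide and other organic anion conjugates. ABCC3 had 42.1, 45.1 and 44.0 CPM in primed aggregates, 41.2, 45.5 and 46.4 in treated aggregates, 40.4, 38.7 and 43.3 in primed and treated aggregates, and 35.5, 30.2 and 23.9 in untreated aggregates. ABCC3 in monolayers was at 82.1, 77.7 and 79.3 CPM after acute exposure, 41.0, 42.0 and 43.9 when primed and 51.2, 47.4 and 51.4 when untreated. Acutely exposed monolayers were above all other libraries and untreated aggregates below them all, with untreated monolayers next to the top and 4 overlapping groups between.

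**Figure D1:**
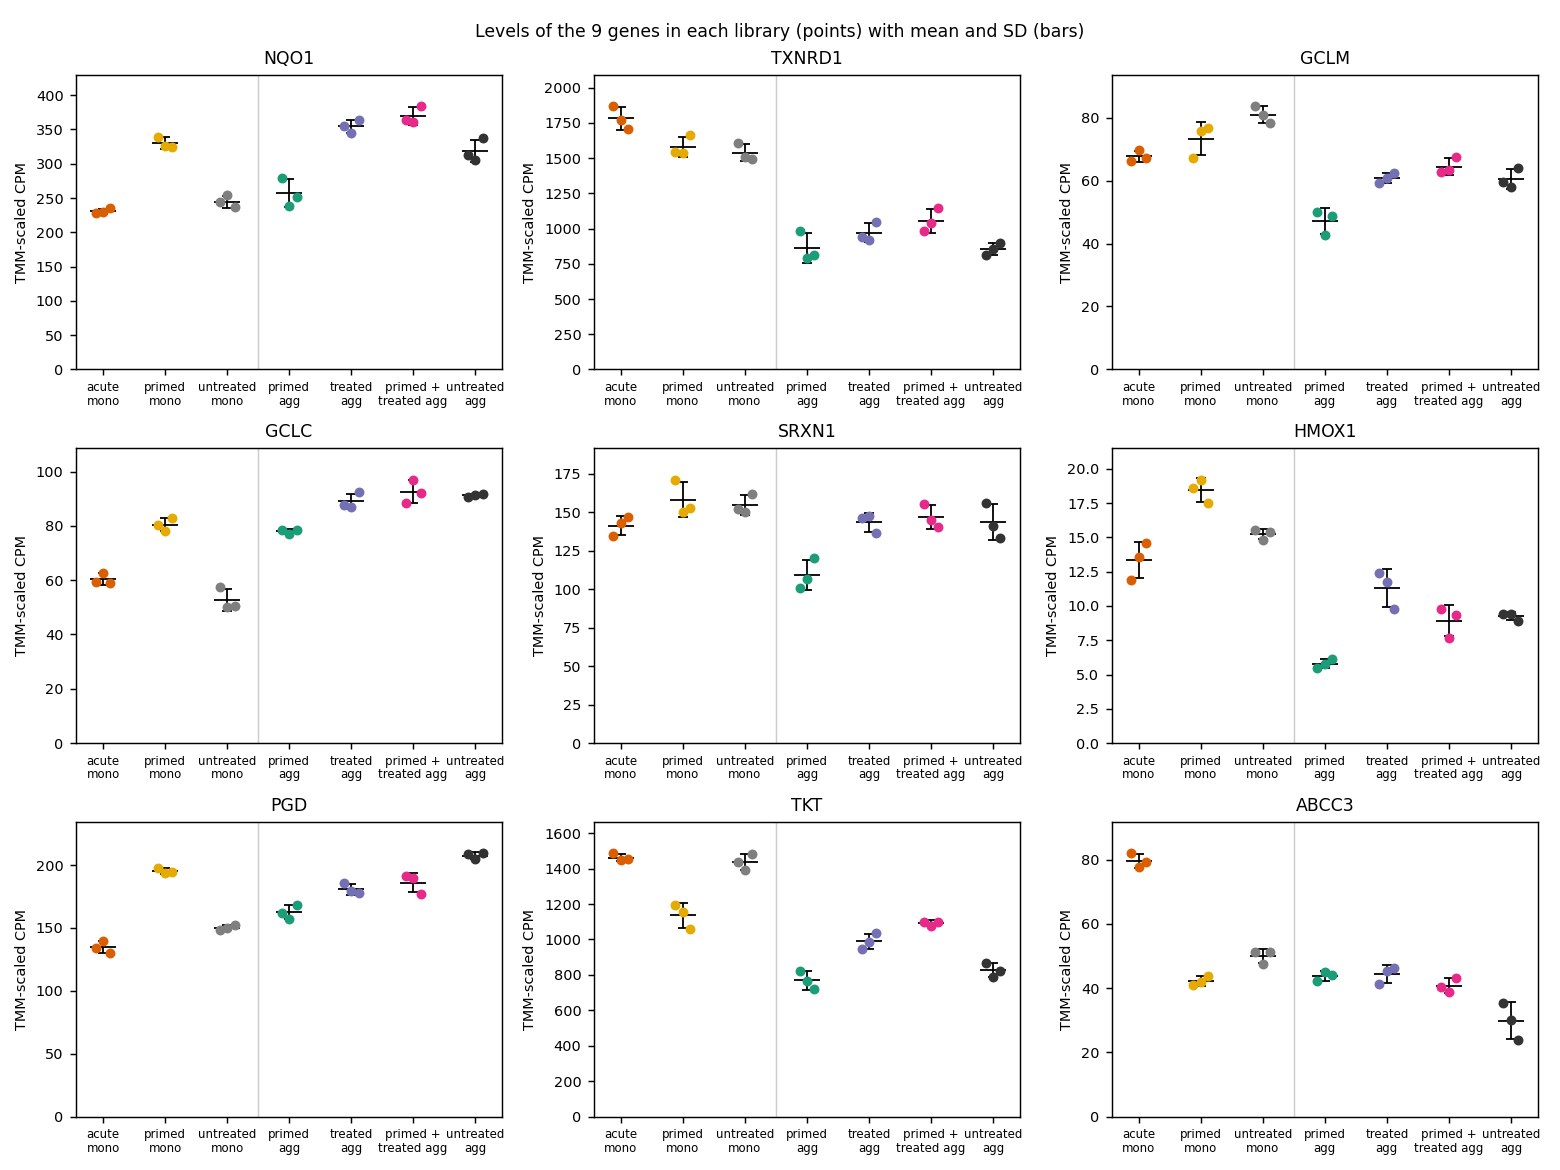
Level of each of the 9 genes (CPM, y axis from 0) in every library, by group on the x axis; points are single libraries and bars the mean of 3 with SD. Every monolayer library is above every aggregate library for TXNRD1, while GCLC and PGD are lowest in acutely exposed and untreated monolayers.

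Per kilobase of exon, the median of the 7 group means was 360 CPM per kb for TKT, 209 for TXNRD1, 102 for NQO1, 96.0 for PGD and 53.2 for SRXN1. On the same scale GCLM was at 13.1, GCLC at 12.6, ABCC3 at 6.82 and HMOX1 at 6.22. The 9 genes thus differed far more in level than any of them did between groups. The highest group mean was 3.18 times the lowest for HMOX1, 2.67 times for ABCC3, 2.09 times for TXNRD1 and 1.90 times for TKT, and 1.45 to 1.76 times for the other 5. Antisense or other genes overlap NQO1, TXNRD1, GCLC and SRXN1 in the annotation. Of them only EID3, at 2.31 CPM, is in the table, and whether counting used strand is not given in the sources used here.

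The genes did not share one pattern over the 7 groups. The closest pair was GCLM and SRXN1, with a root mean square difference of 0.104 between their centred log2 group means, followed by NQO1 with PGD (0.136), NQO1 with GCLC (0.151), GCLC with PGD (0.166) and TXNRD1 with TKT (0.173). NQO1 and TXNRD1 were 0.577 apart. Among all genes with a mean of 10 CPM or more, the one nearest to NQO1 was PDLIM7 (0.0581), to TXNRD1 ZBTB40 (0.0917), to GCLM TLN2 (0.0670) and to GCLC SPATA2L (0.0549). RCN2 was nearest to SRXN1 (0.0584), PPIC to HMOX1 (0.133), B3GAT3 to PGD (0.0454), MGST1 to TKT (0.0549) and GGT5 to ABCC3 (0.0697), with GLUL next for ABCC3 (0.0854). These distances describe 7 group means that share the library sets, and carry no test.

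**Figure D2:**
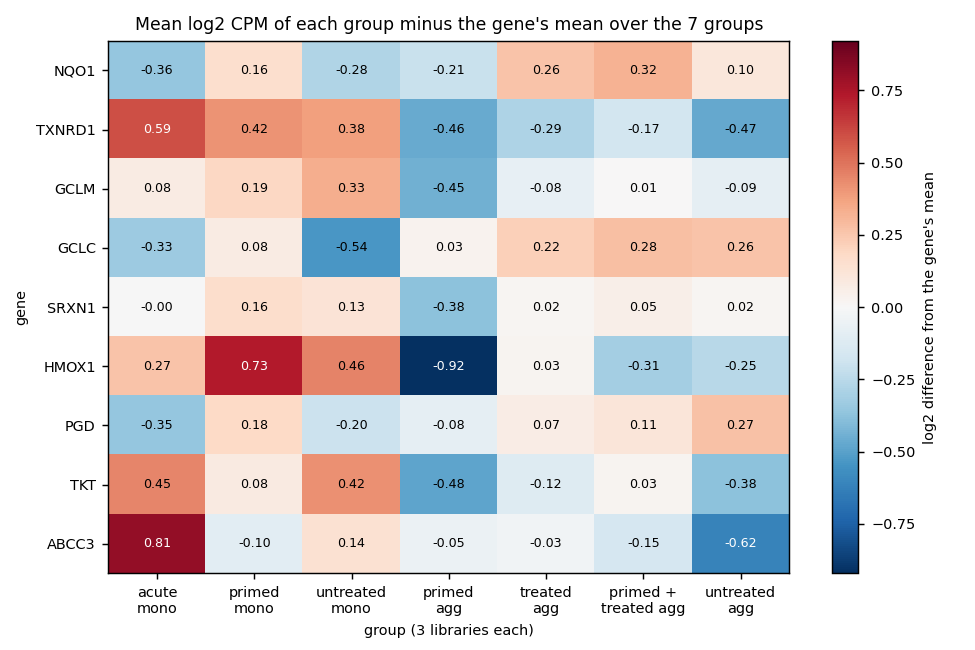
Log2 CPM of each gene minus its own mean over the 7 groups, by group (columns) and gene (rows), with colour for the difference. Primed aggregates hold the lowest value for GCLM, SRXN1, HMOX1 and TKT, and untreated aggregates the lowest for TXNRD1 and ABCC3.

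Untreated aggregates differed from untreated monolayers in 8 of the 9 genes, and in opposite directions. The aggregates also had 96 h of aggregation and 5% matrigel, which the monolayers lacked, so growth form, time and matrix cannot be told apart. Of them 3 rose (32.9% of all tested genes rose) and 5 fell (31.1% of all fell), with a median change of -0.42 against 0.010 over all genes. In either direction 64.1% of all tested genes passed. The subunits of glutamate-cysteine ligase parted. GCLC rose to 91.3 ± 0.450 CPM in untreated aggregates, against 52.6 ± 4.13 in untreated monolayers (log2 fold change 0.80, SE 0.056, adjusted p = 1.81e-14), while GCLM fell to 60.5 ± 3.25 CPM, against 80.8 ± 2.71 (log2 fold change -0.42, SE 0.062, adjusted p = 3.75e-07). The same was seen for the pentose phosphate enzymes. PGD rose to 208 ± 2.74 CPM in untreated aggregates, against 150.3 ± 2.17 in untreated monolayers (log2 fold change 0.47, SE 0.047, adjusted p = 1.19e-10), and TKT fell to 826 ± 39.8 CPM, against 1437 ± 43.9 (log2 fold change -0.80, SE 0.053, adjusted p = 4.24e-15). NQO1 was the third gene to rise (log2 fold change 0.38, SE 0.052, adjusted p = 9.04e-08). TXNRD1 fell (log2 fold change -0.85, SE 0.070, adjusted p = 1.1e-11), as did HMOX1 (log2 fold change -0.72, SE 0.11, adjusted p = 6.05e-07) and ABCC3 (log2 fold change -0.74, SE 0.083, adjusted p = 2.29e-09). SRXN1 did not pass, at 144 ± 11.5 CPM in untreated aggregates and 155 ± 6.40 in untreated monolayers (log2 fold change -0.11, 95% interval -0.24 to 0.029, adjusted p = 0.141). It passed, as a decrease, without replicate 1 of the untreated aggregates (-0.17) or without the 6 MYH7 libraries (-0.28, adjusted p = 0.0385), a fit with 1 library left in each group and the spread taken from the other groups. Both groups lie among the 12 libraries, and mitochondrial rRNA was at 2.502 to 2.75% of counts in untreated aggregates and 0.925 to 1.14% in untreated monolayers. Summed melanocyte markers were at 25.2 to 33.9 CPM in untreated aggregates and 58.9 to 125 in untreated monolayers. In the same order, brain markers were at 30.2 to 32.4 and 36.6 to 44.2 CPM, and hepatocyte markers at 77.0 to 98.5 and 118 to 138 CPM. The part of the rRNA or of any of these markers in the changes was not tested.

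Per kilobase, GCLC was at 1.16 ± 0.058 times the level of GCLM in untreated aggregates and 0.500 ± 0.025 times in untreated monolayers (SD, n = 3). Over all groups this ratio was 1.05 to 1.39 in the 12 aggregate libraries and 0.478 to 0.917 in the 9 monolayer libraries, with no overlap. PGD was at 0.405 ± 0.016 times the level of TKT in untreated aggregates and 0.168 ± 0.0040 times in untreated monolayers. That ratio was 0.274 ± 0.013 in primed and treated aggregates and 0.277 ± 0.016 in primed monolayers, so it did not separate the growth forms. The ratios are descriptions with no test of their own.

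**Figure D3:**
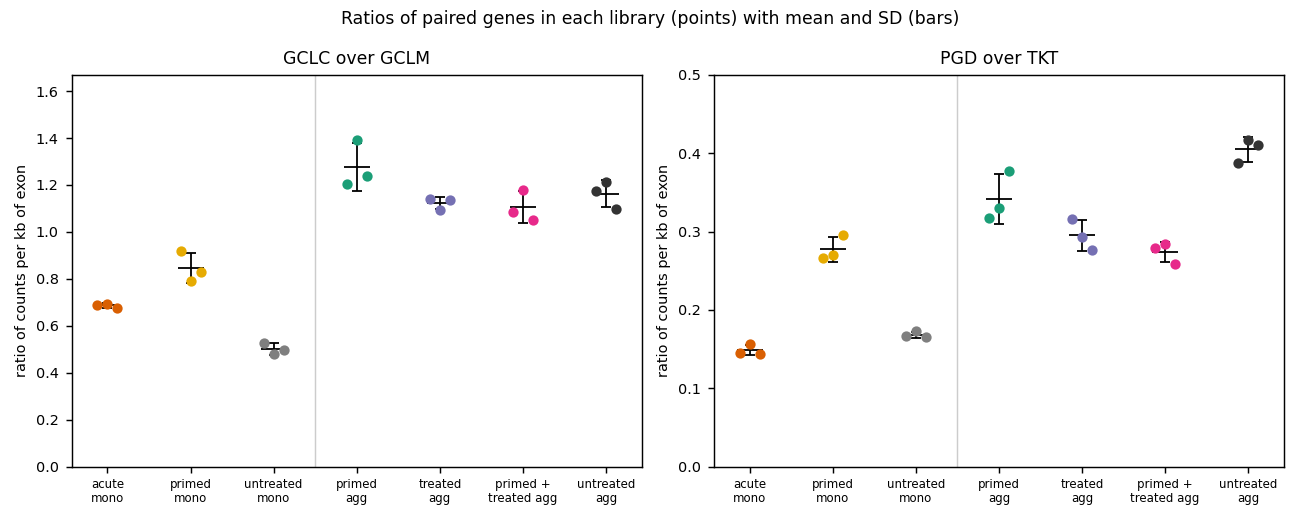
Ratio of GCLC to GCLM and of PGD to TKT (CPM per kilobase of exon, y axis from 0) in each library, by group; points are libraries and bars the mean of 3. The GCLC to GCLM ratio is 1.05 or more in every aggregate library and at most 0.917 in every monolayer library.

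Genes that control NRF2 moved in both directions between aggregates and monolayers. NFE2L2 rose to 72.0 ± 3.59 CPM in untreated aggregates, against 63.8 ± 3.53 in untreated monolayers (log2 fold change 0.17, SE 0.058, adjusted p = 0.00999), KEAP1 rose (log2 fold change 0.41, SE 0.088, adjusted p = 0.000111) and so did BACH1 (log2 fold change 0.30, SE 0.056, adjusted p = 1.37e-05). Of 16 genes of NRF2, its partners and its degradation, 7 rose and 4 fell, led by the small MAF protein MAFF (1.58) and the KEAP1-binding autophagy receptor SQSTM1 (0.65). Among 22 other known NRF2 targets 6 rose and 12 fell. The microsomal glutathione transferase MGST1 was at -0.78 and the epoxide hydrolase EPHX1 at 0.76. All 10 other pentose phosphate genes tested passed, 4 up and 6 down. Among them H6PD, a pathway enzyme of the endoplasmic reticulum, rose (log2 fold change 1.17, SE 0.081, adjusted p = 4.02e-14). Other sources of NADPH gave 3 of 13 up and 6 down, with mitochondrial IDH2 at 1.02. Of 30 glutathione genes 11 rose and 12 fell, of 21 thioredoxin and peroxiredoxin genes 4 rose and 8 fell, of 18 haem and iron genes 7 rose and 9 fell, and of 10 tested efflux transporters 4 rose and 5 fell. The glutathione transferase GSTM4 was at -0.91, mitochondrial SOD2 at -0.89, the haem transporter SLC48A1 at 1.66 and the transporter ABCC11 at -2.28.

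Priming was followed by lower levels of most of the genes in aggregates. Compared with untreated aggregates, primed aggregates, kept 96 h after the antibody exposure, had lower levels of 6 of the 9 genes (9.66% of all tested genes fell) and a higher level of 1, ABCC3 (11.5% of all rose), 7 in all where 21.2% of all genes passed. The median change was -0.31, against -0.0002 over all genes. All 7 calls held when any 1 library was left out. They also passed without the MYH7 libraries, a fit that leaves 1 untreated library and takes the spread from the other groups. Both groups lie among the 12 libraries, but the sums of 5 marker lists did not overlap between them. As said above, the brain, muscle and hepatocyte sums need not come from those tissues. Summed melanocyte markers were 65.3 to 106 CPM in primed aggregates and 25.2 to 33.9 in untreated aggregates, and brain markers 37.0 to 40.1 and 30.2 to 32.4 CPM. Striated muscle markers were 153 to 157 CPM in primed aggregates and 211 to 235 in untreated aggregates, and hepatocyte markers 61.2 to 72.5 and 77.0 to 98.5 CPM. The fifth list, macrophage markers, is given above with HMOX1. Their part in the changes was not tested.

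HMOX1 changed most in log2 terms. It was at 5.80 ± 0.331 CPM in primed aggregates, against 9.26 ± 0.292 in untreated aggregates (log2 fold change -0.67, SE 0.12, adjusted p = 0.000127). NQO1 was at 257 ± 20.5 CPM in primed aggregates, against 318 ± 16.4 in untreated aggregates (log2 fold change -0.31, SE 0.052, adjusted p = 3.91e-05). Every primed library was below every untreated one for both genes. Both ligase subunits fell this time, GCLM to 47.2 ± 4.06 CPM in primed aggregates, against 60.5 ± 3.25 in untreated aggregates (log2 fold change -0.36, SE 0.064, adjusted p = 0.000106), and GCLC to 78.0 ± 0.848 CPM, against 91.3 ± 0.450 (log2 fold change -0.23, SE 0.055, adjusted p = 0.00292). SRXN1 fell to 109 ± 9.83 CPM in primed aggregates, against 144 ± 11.5 in untreated aggregates (log2 fold change -0.39, SE 0.065, adjusted p = 3.07e-05), and TXNRD1 did not pass (log2 fold change 0.013, 95% interval -0.14 to 0.16, adjusted p = 0.928). PGD fell to 162 ± 5.47 CPM in primed aggregates, against 208 ± 2.74 in untreated aggregates (log2 fold change -0.35, SE 0.047, adjusted p = 1.04e-06), while TKT did not pass (log2 fold change -0.10, 95% interval -0.22 to 0.01, adjusted p = 0.173). TKT passed, as a decrease, only when replicate 1 of the primed aggregates was left out (-0.16). ABCC3 rose to 43.7 ± 1.51 CPM in primed aggregates, against 29.9 ± 5.80 in untreated aggregates (log2 fold change 0.55, SE 0.085, adjusted p = 1.37e-05), and its change was 0.87 without the MYH7 libraries, 2 of which are untreated aggregates.

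NFE2L2 and KEAP1 did not pass after priming (-0.050, adjusted p = 0.61, and -0.11, adjusted p = 0.393). The repressor BACH1 rose to 91.3 ± 3.63 CPM in primed aggregates, against 82.2 ± 2.47 in untreated aggregates (log2 fold change 0.15, SE 0.055, adjusted p = 0.045). Of 16 control genes 4 rose and 3 fell, the last including the mitochondrial KEAP1 tether PGAM5 (-0.40) and the KEAP1-binding peptidase DPP3 (-0.40). Among 22 other NRF2 targets 2 rose and 6 fell, EPHX1 at -0.37 and the conjugate exporter ABCC4 at 0.39. Of 10 pentose phosphate genes 1 rose and 2 fell, with the lactonase PGLS at -0.35. Counts were 1 up and 5 down of 13 NADPH sources, 5 and 10 of 30 glutathione genes, 2 and 6 of 21 thioredoxin and peroxiredoxin genes, 2 and 4 of 18 haem and iron genes, and 3 and 2 of 10 efflux transporters. The thioredoxin-binding arrestin TXNIP rose to 354 ± 74.6 CPM in primed aggregates, against 103 ± 25.6 in untreated aggregates (log2 fold change 1.78, SE 0.20, adjusted p = 1.56e-05).

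Acute exposure of monolayers gave another picture, in which ABCC3 stood out. In all 3 genes rose (11.3% of all rose) and 2 fell (8.91% of all fell) relative to untreated monolayers, and 20.2% of all passed. Some marker sums did not overlap between these groups. Brain markers were 32.8 to 33.5 CPM in acutely exposed and 36.6 to 44.2 in untreated monolayers, and hepatocyte markers 146 to 172 and 118 to 138. The luminal breast markers were 18846 to 19867 and 15455 to 16791 CPM. Their part in the changes was not tested. ABCC3 rose to 79.7 ± 2.23 CPM in acutely exposed monolayers, against 50.0 ± 2.24 in untreated monolayers, with no overlap (log2 fold change 0.67, SE 0.077, adjusted p = 4.34e-08). The other changes were small. TXNRD1 (log2 fold change 0.21, SE 0.069, adjusted p = 0.0259) and GCLC (log2 fold change 0.20, SE 0.057, adjusted p = 0.00904) rose, and GCLM (log2 fold change -0.26, SE 0.061, adjusted p = 0.0023) and PGD (log2 fold change -0.16, SE 0.047, adjusted p = 0.0147) fell. NQO1 (-0.083), SRXN1 (-0.13), HMOX1 (-0.19) and TKT (0.025) did not pass, with 95% intervals that ran from -0.41 to 0.14 in all. ABCC3 alone passed without the 4 MYH7 libraries of these groups (1 acutely exposed and 1 untreated library are then left, and the spread comes from the other groups alone). TXNRD1 did not pass without replicate 1 or 2 of the exposed or 2 or 3 of the untreated monolayers (0.17 to 0.22), GCLC without replicate 2 of either group (0.17 in both), and PGD without replicate 3 of either group (-0.14 in both).

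MAFF rose in acutely exposed monolayers too (log2 fold change 1.34, SE 0.096, adjusted p = 1.78e-10), as did BACH1 (log2 fold change 0.21, SE 0.055, adjusted p = 0.00589), and NFE2L2 (-0.016) and KEAP1 (0.095) did not pass. Of the 16 control genes 5 rose and 1 fell. Among 22 other NRF2 targets 3 rose and 7 fell, and the exporters divided, ABCC4 at 0.80 and ABCC2 at -0.80. NADPH sources had 0 of 13 up and 5 down, with IDH1 at -0.42 and malic enzyme ME1 at -0.34, and pentose phosphate genes 2 of 10 up, H6PD (0.41) and PGM2 (0.23), and 0 down. Counts up and down were 4 and 7 of 30 glutathione genes, 1 and 2 of 21 thioredoxin and peroxiredoxin genes, 3 and 4 of 18 haem and iron genes, and 3 and 2 of 10 efflux transporters.

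The change after priming in aggregates was set against the change after acute exposure in monolayers as a difference between the log2 fold changes. Primed aggregates were kept 96 h after the drug, while acutely exposed monolayers were taken directly after it. Time since exposure, growth form and matrigel thus cannot be told apart in this difference. None of the 9 was higher (6.85% of all) and 5 were lower (8.25% of all), where 15.1% of all passed either way. GCLC had the smallest p (difference in log2 fold change -0.43, SE 0.079, adjusted p = 0.000234), falling in one setting and rising in the other. HMOX1 (-0.49, adjusted p = 0.0359), NQO1 (-0.23, 0.0323), SRXN1 (-0.26, 0.0441) and PGD (-0.20, 0.0415) also passed. The change of ABCC3, a rise in both, did not differ past the threshold (-0.12, 95% interval -0.37 to 0.12). Each of the 4 weaker calls was lost without 7 to 9 of the 12 libraries left out in turn and without the MYH7 libraries. In that last fit GCLC alone passed, with 1 library left in 3 of the 4 groups and the spread taken from the groups with 3. TXNRD1 passed (-0.20 over all libraries) only without replicate 1 of the primed aggregates (-0.31).

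In aggregates given the second exposure, priming went with a change in 1 of the genes. Primed and treated aggregates, both exposures, were compared with treated aggregates, the second alone, within the 9 libraries. None of the 9 genes rose (3.18% of all rose) and 1 fell (4.8% of all fell), where 7.98% of all passed. HMOX1 fell to 8.94 ± 1.11 CPM in primed and treated aggregates, against 11.3 ± 1.38 in treated aggregates, with overlapping replicates (log2 fold change -0.34, SE 0.11, adjusted p = 0.044). That call was lost without replicate 2 or 3 of the primed and treated or 1 or 2 of the treated aggregates (-0.37 to -0.24). It was also lost with the replicate block (adjusted p = 0.0548) and without the MYH7 libraries (adjusted p = 0.0619), none of which is in these groups. Mitochondrial rRNA took 2.13 to 2.36% of counts in primed and treated aggregates and 1.52 to 1.71% in treated aggregates. In the same order, striated muscle markers summed to 132 to 142 and 106 to 116 CPM, and hepatocyte markers to 184 to 195 and 203 to 230 CPM. Melanocyte markers summed to 6.73 to 7.73 and 8.34 to 10.2 CPM, and erythroid markers to 0.798 to 2.20 and 0.213 to 0.430 CPM. Their part was not tested. The 95% intervals were -0.052 to 0.17 for NQO1, -0.048 to 0.21 for GCLM, -0.057 to 0.17 for GCLC, -0.10 to 0.17 for SRXN1, -0.060 to 0.14 for PGD and -0.29 to 0.051 for ABCC3. TKT was 0.14 (adjusted p = 0.0913) and passed when the fit held the compared groups alone (adjusted p = 0.0234). TXNRD1 did not pass (0.12, 95% interval -0.028 to 0.27).

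Tested directly, the effect of priming differed between aggregates with and without the second exposure for 7 of the 9 genes. The priming effect without the second exposure comes from the 12 libraries and that with it from the 9. The former is the change of primed against untreated aggregates given above, so that result and this test share libraries. The difference was positive for 6 (5.05% of all) and negative for 1 (7.42% of all), where 12.5% of all passed either way. It was 0.39 for PGD (SE 0.066, adjusted p = 6.86e-05), 0.37 for NQO1 (SE 0.073, adjusted p = 0.000617) and 0.44 for GCLM (SE 0.089, adjusted p = 0.000751). SRXN1 (0.43, adjusted p = 0.00123), GCLC (0.28, 0.0115) and TKT (0.25, 0.0247) differed the same way. ABCC3 differed in the other direction (difference in log2 fold change -0.67, SE 0.12, adjusted p = 0.000124). HMOX1, which was lower after priming with and without the second exposure, did not pass (0.33, 95% interval -0.020 to 0.68, adjusted p = 0.197), nor did TXNRD1 (0.11, 95% interval -0.10 to 0.32, adjusted p = 0.541). Without the MYH7 libraries, with 1 untreated aggregate library left, SRXN1 (0.32, adjusted p = 0.0502) and TKT (0.24, adjusted p = 0.0973) did not pass. TKT also did not pass without replicate 1 or 2 of the treated, 3 of the primed or 1 of the untreated aggregates (0.21 to 0.25). The second drug exposure, the 24 h more in culture and the library set cannot be told apart in this difference.

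**Figure D4:**
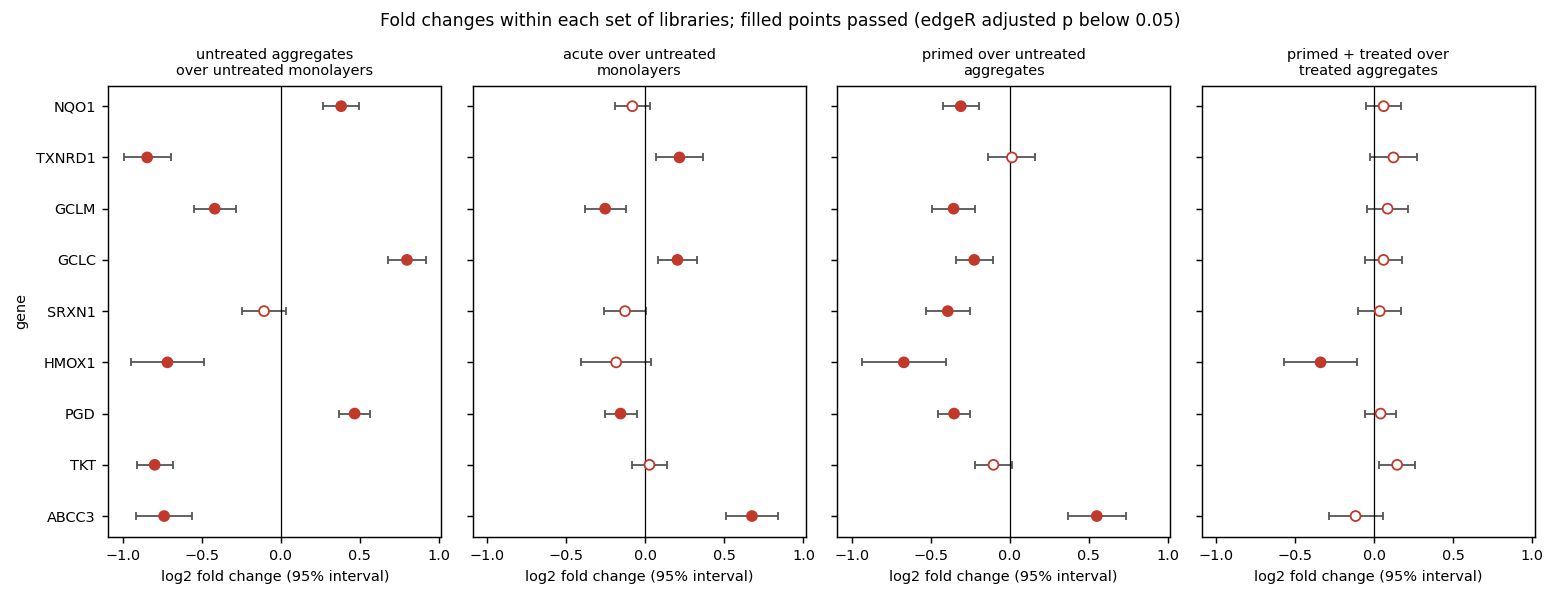
Log2 fold changes of the 9 genes (x axis) with 95% intervals, for 4 comparisons, each within 1 library set. Filled points passed at an edgeR adjusted p below 0.05. Primed against untreated aggregates lie to the left of 0 for 6 genes that passed, and primed and treated against treated aggregates lie near 0 except HMOX1 at -0.34.

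Most genes of the other lists did not pass in either of these tests. Between primed and treated and treated aggregates, counts up and down were 1 and 2 of 16 control genes (MAFF 0.34, DPP3 -0.25), 1 and 0 of 22 other targets (ferritin light chain FTL 0.27), 1 and 2 of 30 glutathione genes, 1 and 0 of 21 thioredoxin and peroxiredoxin genes, 0 and 1 of 18 haem and iron genes, and 1 and 1 of 10 efflux transporters. None of 13 NADPH sources and none of 10 pentose phosphate genes passed in edgeR, with an unadjusted p below 0.05 for 2 of the NADPH sources and 1 of the pentose phosphate genes, H6PD. NFE2L2 (0.047), KEAP1 (-0.081) and BACH1 (-0.045) did not pass. In the test of the difference, 2 of 22 other NRF2 targets were higher and 1 lower, EPHX1 at 0.48 (adjusted p = 6.86e-05) and the cystine importer SLC7A11 at -0.55 (adjusted p = 0.00342). There 12.5% of all genes passed. Counts up and down were 3 and 1 of 16 control genes, 3 and 2 of 30 glutathione genes, and 3 and 2 of 21 thioredoxin and peroxiredoxin genes. They were 0 and 1 of 18 haem and iron genes, 1 and 2 of 10 efflux transporters, 1 and 0 of 10 pentose phosphate genes, and 0 and 0 of 13 NADPH sources. BACH1 was at -0.20 (adjusted p = 0.0919), NFE2L2 at 0.10 and KEAP1 at 0.034, none of which passed.

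Primed and treated aggregates were also compared with primed monolayers, again within the 9 libraries. The growth form, the matrigel, the later antibody exposure and 24 h more in culture differ together in that comparison. There 2 genes rose (31.9% of all rose) and 3 fell (32.1% of all fell), so 5 passed where 63.9% of all did. GCLC was higher at 92.6 ± 4.23 CPM in primed and treated aggregates, against 80.4 ± 2.44 in primed monolayers (log2 fold change 0.20, SE 0.055, adjusted p = 0.00156), as was NQO1 (log2 fold change 0.16, SE 0.052, adjusted p = 0.00702), a call lost without replicate 3 of the primed and treated aggregates (0.13). HMOX1 was lower at 8.94 ± 1.11 CPM in primed and treated aggregates, against 18.5 ± 0.865 in primed monolayers (log2 fold change -1.04, SE 0.11, adjusted p = 1.68e-10), TXNRD1 was lower (log2 fold change -0.58, SE 0.069, adjusted p = 1.95e-08), and GCLM was lower with overlapping replicates (log2 fold change -0.19, SE 0.062, adjusted p = 0.00946). PGD (-0.072, 95% interval -0.17 to 0.028), TKT (-0.058, -0.17 to 0.055) and ABCC3 (-0.051, -0.23 to 0.13), which differed between untreated aggregates and untreated monolayers, did not pass here, and neither did SRXN1 (-0.11, -0.24 to 0.030). Whether these changes differ from those without drug was not tested. Of 10 pentose phosphate genes 1 rose, H6PD (1.09), and 9 fell, among them transaldolase TALDO1 (-0.57). Among 22 other NRF2 targets 9 rose and 7 fell, EPHX1 at 0.89 and SLC7A11 at 1.54, and BACH1 rose (0.45, adjusted p = 1.53e-08), while NFE2L2 (0.11) and KEAP1 (-0.15) did not pass.

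The remaining 4 comparisons cross the library sets, so treatment and set cannot be told apart in any of them. The first sets primed against untreated monolayers, where 4 genes rose (33.7% of all rose) and 3 fell (31.6% of all fell), 7 in all against a background of 65.3%. Primed monolayers also had 96 h of incubation that untreated monolayers lacked, so time in culture cannot be told apart from priming either. GCLC rose to 80.4 ± 2.44 CPM in primed monolayers, against 52.6 ± 4.13 in untreated monolayers (log2 fold change 0.61, SE 0.057, adjusted p = 1.83e-11), NQO1 (log2 fold change 0.43, SE 0.052, adjusted p = 7.11e-09) and PGD (log2 fold change 0.38, SE 0.047, adjusted p = 1.28e-08) rose, and TKT fell (log2 fold change -0.34, SE 0.053, adjusted p = 1.14e-06). HMOX1 (0.28, adjusted p = 0.0192) rose, and ABCC3 (-0.24, 0.0113) and GCLM (-0.14, 0.0466) fell. TXNRD1 (0.040) and SRXN1 (0.031) did not pass. HMOX1 and GCLM lost their calls without the MYH7 libraries (0.26 and -0.093), GCLM also without replicate 1 or 2 of the untreated or 1 of the primed monolayers (-0.14 to -0.080), and HMOX1 without replicate 2 of either group (0.24 and 0.25). In that comparison 6 of 10 pentose phosphate genes rose and 1 fell. Among 22 other targets 7 rose and 11 fell, with SLC7A11 at -2.21, BACH1 fell (-0.21, adjusted p = 0.00148), and NFE2L2 (0.074) and KEAP1 (0.11) did not pass.

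Treated aggregates, compared with untreated aggregates, had 5 of the 9 genes higher (18.8% of all rose) and 1 lower (17.9% of all fell), where 36.7% of all genes passed. ABCC3 rose to 44.4 ± 2.74 CPM in treated aggregates, against 29.9 ± 5.80 in untreated aggregates (log2 fold change 0.57, SE 0.084, adjusted p = 1.97e-06), and TKT to 989 ± 43.5 CPM, against 826 ± 39.8 (log2 fold change 0.26, SE 0.053, adjusted p = 0.000205). NQO1 (0.16, adjusted p = 0.0172), TXNRD1 (0.18, 0.0368) and HMOX1 (0.29, 0.0389) also rose, each a call lost without the MYH7 libraries (0.072, 0.11 and 0.34). NQO1 and TXNRD1 were also lost without replicate 1 or 3 of the treated or 1 or 2 of the untreated aggregates (0.12 to 0.15 and 0.13 to 0.20), and HMOX1 without any 1 of these groups' libraries but replicate 3 of the treated (0.21 to 0.30). PGD fell (log2 fold change -0.20, SE 0.046, adjusted p = 0.000952). GCLM (0.011, 95% interval -0.12 to 0.14), GCLC (-0.036, -0.15 to 0.080) and SRXN1 (95% interval -0.14 to 0.13) did not pass. KEAP1 fell (log2 fold change -0.37, SE 0.087, adjusted p = 0.000996), while NFE2L2 (-0.038) and BACH1 (-0.022) did not pass. Among 22 other targets 9 rose, ABCC4 with the smallest p (1.26), and 2 fell, and of 13 NADPH sources 0 rose and 8 fell.

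Primed and treated aggregates had 4 genes higher (17.6% of all rose) and 1 lower (17.9% of all fell; 35.5% of all passed) than untreated aggregates, which both this and the preceding comparison use. TKT (log2 fold change 0.40, SE 0.053, adjusted p = 2.72e-07) and ABCC3 (log2 fold change 0.45, SE 0.084, adjusted p = 7.22e-05) rose, and these alone passed without the MYH7 libraries, where 1 untreated aggregate library is left and the spread comes from the other groups. TXNRD1 (0.31, adjusted p = 0.000945) and NQO1 (0.21, 0.00139) rose over all libraries, and PGD fell (-0.16, 0.00716), a call also lost without replicate 3 of the primed and treated aggregates (-0.13). GCLM (0.094), GCLC (0.021), SRXN1 (0.032) and HMOX1 (-0.051) did not pass. KEAP1 fell to 22.6 ± 1.66 CPM in primed and treated aggregates, against 30.8 ± 1.15 in untreated aggregates (log2 fold change -0.45, SE 0.087, adjusted p = 0.000108), and NFE2L2 (0.0088) and BACH1 (-0.067) did not pass.

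Set against primed aggregates, primed and treated aggregates had 8 of the 9 genes higher (14.9% of all rose) and none lower (14.8% of all fell, 29.8% passed either way). The median was 0.43, against -0.0022 over all genes. The same primed aggregate libraries enter the comparison with untreated aggregates and the test of the difference. Low levels in primed aggregates thus enter all of these results, which are not independent. The rises were 0.62 for HMOX1 (adjusted p = 0.000136), 0.53 for NQO1 (2.08e-09), 0.51 for TKT (6.51e-09), 0.45 for GCLM (1.3e-06) and 0.43 for SRXN1 (4.58e-06). TXNRD1 (0.29, 0.0018), GCLC (0.25, 0.000674) and PGD (0.19, 0.00162) rose by less. ABCC3 did not pass (-0.10, 95% interval -0.27 to 0.073, adjusted p = 0.38). Of 22 other NRF2 targets 13 rose and 1 fell, among them ABCC4 (1.01) and MGST1 (0.51). BACH1 fell (log2 fold change -0.22, SE 0.054, adjusted p = 0.00226), KEAP1 fell (log2 fold change -0.33, SE 0.087, adjusted p = 0.00343) and NFE2L2 did not pass (0.059, adjusted p = 0.477). NFE2L2 passed in none of the 11 tests but that of untreated aggregates against untreated monolayers.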

How the data were processed

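RNA from 21 AU565 libraries was sequenced after TRIzol extraction and TruSeq preparation, per the labels' protocols. The authors deposited raw read counts per gene, made with featureCounts on hg38 per the submitters' processing notes, which also name limma; versions are not given in the sources used here. Columns were matched to samples by title. For primed aggregates the column names add "primed" to what the titles say, and those columns were assigned by elimination.

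Counts were tested in edgeR 4.0.16 (R 4.3.3) with TMM factors, filterByExpr by group (584 of 16553 genes removed, with 0.0116% of counts) and robust quasi-likelihood fits. All 7 groups shared 1 fit with 14 residual degrees of freedom, and tests were two-sided. The p was Benjamini-Hochberg adjusted over 15969 genes in each of 9 comparisons and 2 differences between responses. The 95% intervals were made from the SE with a t distribution on 14 degrees of freedom. The tests also use spread shared over genes, so an interval can cross 0 where the unadjusted p is below 0.05. Replicate pairs differed by 2.40 to 10.7 times counting variance, so none was a duplicate, and the biological coefficient of variation was 5.98%. Replicate numbers did not pair the samples. The steps were tested on simulated data for acutely exposed against untreated monolayers only. Of 100 genes at each of 2 sizes of change, 81% and 91% were recovered, and 7.03% of the 185 calls were false. The fit of all 7 groups and the differences between responses were not simulated. Exon lengths came from GENCODE and positions and promoters from RefSeq (GRCh38.p14), which need not be the annotation used upstream.

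The 9 genes, the gene lists and the marker lists were chosen with earlier results of these data known, and the lists support nothing beyond their counts. Named genes are the 9 members, NFE2L2, KEAP1 and BACH1, and from each other list up to 2 of the 3 called genes with the smallest p. Values of NFE2L2, KEAP1 and BACH1 are not given for the difference between priming and acute exposure. Further named list members (PGLS, ABCC11, TXNIP, H6PD and others) fall under that rule for lists in the comparison where they stand. 1 other pentose phosphate gene is not reported here. Genes most like a member are those with the smallest root mean square difference over the 7 group means. Alternatives were DESeq2 1.42.0, voom in limma 3.58.1, RLE size factors, no filter, only the compared groups, a replicate block, leaving out each library and leaving out the libraries with MYH7 above 1 CPM.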

Additional observations from a re-analysis of the deposited data

Results flagged for a closer look

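The response of 7 genes to priming differed between aggregates with and without the second exposure, by a test of the difference itself in edgeR. The differences in log2 fold change were 0.37 for NQO1, 0.44 for GCLM, 0.28 for GCLC, 0.43 for SRXN1, 0.39 for PGD, 0.25 for TKT and -0.67 for ABCC3, with adjusted p given above. Leaving out the MYH7 libraries ended the calls of SRXN1 (0.32) and TKT (0.24). The effect without the second exposure comes from the 12 libraries and that with it from the 9, so the library set cannot be told apart from the second exposure.

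The change after priming in aggregates differed from the change after acute exposure in monolayers for 5 genes, by the same kind of test. Time since exposure, growth form and matrigel cannot be told apart in it. The differences were -0.23 for NQO1, -0.43 for GCLC, -0.26 for SRXN1, -0.49 for HMOX1 and -0.20 for PGD. Of these, GCLC passed in every fit that left out 1 library, and the other 4 lost their calls in 7 to 9 of 12 such fits.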

How the results depend on the processing

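Over fits with RLE size factors, DESeq2, limma voom, the compared groups alone, all genes unfiltered and the replicate block, 585 of 594 values for single genes kept their direction and their side of the threshold. No scaling moved the median over all genes by more than 0.1. Each scaling centres most genes near 0, so this median cannot show whether a scaling is right. Among the values for single genes, SRXN1 changed sign near 0 in primed against untreated monolayers (-0.0039 in the fit of the compared groups). It also did so in treated against untreated aggregates (0.0051 with DESeq2, 0.0055 with RLE). HMOX1 in treated against untreated aggregates did not pass with voom (adjusted p = 0.0554) or with the compared groups alone (0.0685). SRXN1 in the difference between priming and acute exposure did not pass with voom (0.0539). Between primed and treated and treated aggregates, 1 gene (TKT) was higher with the compared groups alone. Same-numbered replicates did not deviate together (27 correlations from -0.089 to 0.18, over 0.1 in all 3 pairs of 0 of 9 comparisons, and no comparison in which every sample correlated best with its own number). The replicate block left 0 genes lower between primed and treated and treated aggregates (HMOX1 -0.34, adjusted p = 0.0548), ended the call of SRXN1 in the difference between priming and acute exposure (-0.26, adjusted p = 0.0544), and changed no other call. The cause was not tested.

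Without the 6 MYH7 libraries, untreated aggregates, acutely exposed monolayers and untreated monolayers have 1 library each, which is assumed to vary like the other groups. Acute exposure then gave 1 gene higher and 0 lower, treated against untreated aggregates 2 higher, primed and treated against untreated aggregates 2 higher and 0 lower, primed and treated against treated aggregates 0 lower, and the difference between priming and acute exposure 1 lower. Values that changed sign there, none of them called, were SRXN1 in primed monolayers (-0.036), TXNRD1 in primed aggregates (-0.057), GCLM (-0.077) and SRXN1 (0.10) in treated aggregates, HMOX1 in primed and treated against untreated aggregates (0.0027), and ABCC3 in the difference between priming and acute exposure (0.19).

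Leaving out 1 library at a time gave 1 to 3 genes higher and 1 to 2 lower after acute exposure, 2 to 4 higher in treated against untreated aggregates, 0 to 1 lower in primed and treated against untreated and against treated aggregates, 1 to 2 higher in primed and treated aggregates against primed monolayers, and 1 to 4 lower in the difference between priming and acute exposure. Uncalled values changed sign for SRXN1 in primed monolayers (-0.027 to 0.066), TXNRD1 in primed aggregates (-0.099 to 0.067), SRXN1 (-0.058 to 0.055) and GCLM (-0.029 to 0.048) in treated aggregates, HMOX1 (-0.12 to 0.040), SRXN1 (-0.022 to 0.091) and GCLC (-0.019 to 0.047) in primed and treated against untreated aggregates, SRXN1 against treated aggregates (-0.0049 to 0.067), and ABCC3 in the difference between priming and acute exposure (-0.26 to 0.014).

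HMOX1, at 93 to 380 counts a library, has the widest standard errors of the 9.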
